A study of Rattus norvegicus with 10 samples.

Results

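The prolactin receptor and Stat5 pathway was examined in rat mammary gland through 8 genes, Prlr, Stat5a, Stat5b, Jak2, Socs2, Socs3, Cish and Ghr. All probe sets whose platform annotation names 1 of these symbols alone were taken, which gave 11 of the 15866 non-control probe sets on the array. Prlr had 3 probe sets, Ghr had 2 and each of the other genes had 1. Female Sprague-Dawley rats received 1 of 3 purified diets and were studied at postnatal day 50. RNA came from the fourth mammary gland, and each array carried RNA pooled from 2 animals. The diets were SPI (4 arrays, replicates 2, 3, 4 and 5), GEN (3 arrays, replicates 1, 3 and 5) and CAS (3 arrays, replicates 1, 2 and 3). The series title names genistein, a soy isoflavone, beside SPI and concerns their effect on gene expression. SPI and CAS are abbreviations without a key in the labels and are taken here, from background knowledge, as soy protein isolate (SPI) and casein (CAS), the reference diet. Epithelial cells are named as the source, whereas the labelling protocol names the gland, and colon appears once in the design text. The luminal keratin gene Krt8 had mean signals of 2352 on SPI, 4330 on GEN and 3006 on CAS, and lists of adipocyte, fibroblast and endothelial genes were also bright, so the samples are described as mammary gland. Per the labels, 3 labelled targets were prepared from every RNA pool, and the arrays of 1 pool are not identified. Some of the spread behind the p-values may therefore be technical. Arrays of 1 diet that share a pool would not be independent, and the p-values could then be too small and the intervals too narrow.

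Prolactin is a pituitary hormone that drives the growth and secretory differentiation of the mammary alveoli. It binds the receptor Prlr on luminal epithelial cells and activates the tyrosine kinase Jak2, which phosphorylates the transcription factors Stat5a and Stat5b. These dimerise, enter the nucleus and activate milk protein genes, and Stat5a is the form that lobuloalveolar development depends on most in mice. Growth hormone acts through its own receptor, Ghr, and the same kinase. Cish, Socs2 and Socs3 are induced by such signalling and act back on it as inhibitors.

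Stat5 dimers recognise the letters TTCNNNGAA, which read the same on both strands. Promoter windows from 250 bases before to 50 bases after a start site of a gene were taken from RefSeq (build GRCr8). This gave 8 windows for the members, 2 of them for Prlr, and a start site may lie inside the gene. Socs2 is named only. The motif was present in 2 of the 8 windows, against 8.87% of all 33469 windows of this length. The Cish window is shown because it held the motif 4 times, at 241, 230, 136 and 119 bases before the start. The Prlr window that held it once, 176 bases before its start site, is shown beside it. This window lies inside the gene, which spans 60861391 to 61051883 on chromosome 2, and not at the gene's outer start. Capitals mark the motif, and a match is a description of the letters and not a sign of binding.
Cish, chr8:116850719-116851018, plus strand: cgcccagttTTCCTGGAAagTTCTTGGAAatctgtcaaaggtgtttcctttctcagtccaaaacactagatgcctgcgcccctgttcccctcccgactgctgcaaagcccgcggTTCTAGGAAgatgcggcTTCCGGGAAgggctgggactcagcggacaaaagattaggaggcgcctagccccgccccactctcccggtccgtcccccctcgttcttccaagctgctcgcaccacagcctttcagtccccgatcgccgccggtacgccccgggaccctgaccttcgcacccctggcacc
Prlr, chr2:60909409-60909708, plus strand: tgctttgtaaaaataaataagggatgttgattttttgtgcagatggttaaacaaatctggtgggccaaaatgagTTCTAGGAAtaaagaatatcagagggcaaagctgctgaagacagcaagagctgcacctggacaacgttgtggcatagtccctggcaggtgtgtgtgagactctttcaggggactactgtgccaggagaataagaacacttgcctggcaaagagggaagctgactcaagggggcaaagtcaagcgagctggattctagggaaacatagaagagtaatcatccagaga

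The values are MAS5 signals, scaled per array, and differences are given on the log2 scale with the standard error of a limma fit over all 10 arrays. A probe set was tested if its mean log2 signal was not among the lowest 40%, which set a lower limit of 162 for the geometric mean signal. Of the 11 probe sets, 6 passed (2 of Prlr and those of Stat5a, Jak2, Socs2 and Socs3), and 5 lay below it (the others of Prlr and of Stat5b, Cish and Ghr). At an adjusted p under 0.05, limma called 0 of the 6 in any comparison. The background was 0% of 9520 probe sets in each comparison, so the test called no difference between diets anywhere. At an unadjusted p under 0.05, the members counted 2 of 6 in SPI against CAS (background 4.82%). They counted 1 of 6 in GEN against CAS (background 5.89%), and in SPI against GEN also 1 of 6 (background 7.95%). The 2 for SPI against CAS were both of Prlr and so describe 1 gene. The plain linear model without moderation also called 0 of all probe sets, with 387, 547 and 673 at an unadjusted p under 0.05 in the same order of comparisons. The comparisons share arrays, so their values are not independent of each other.

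**Figure D1:**
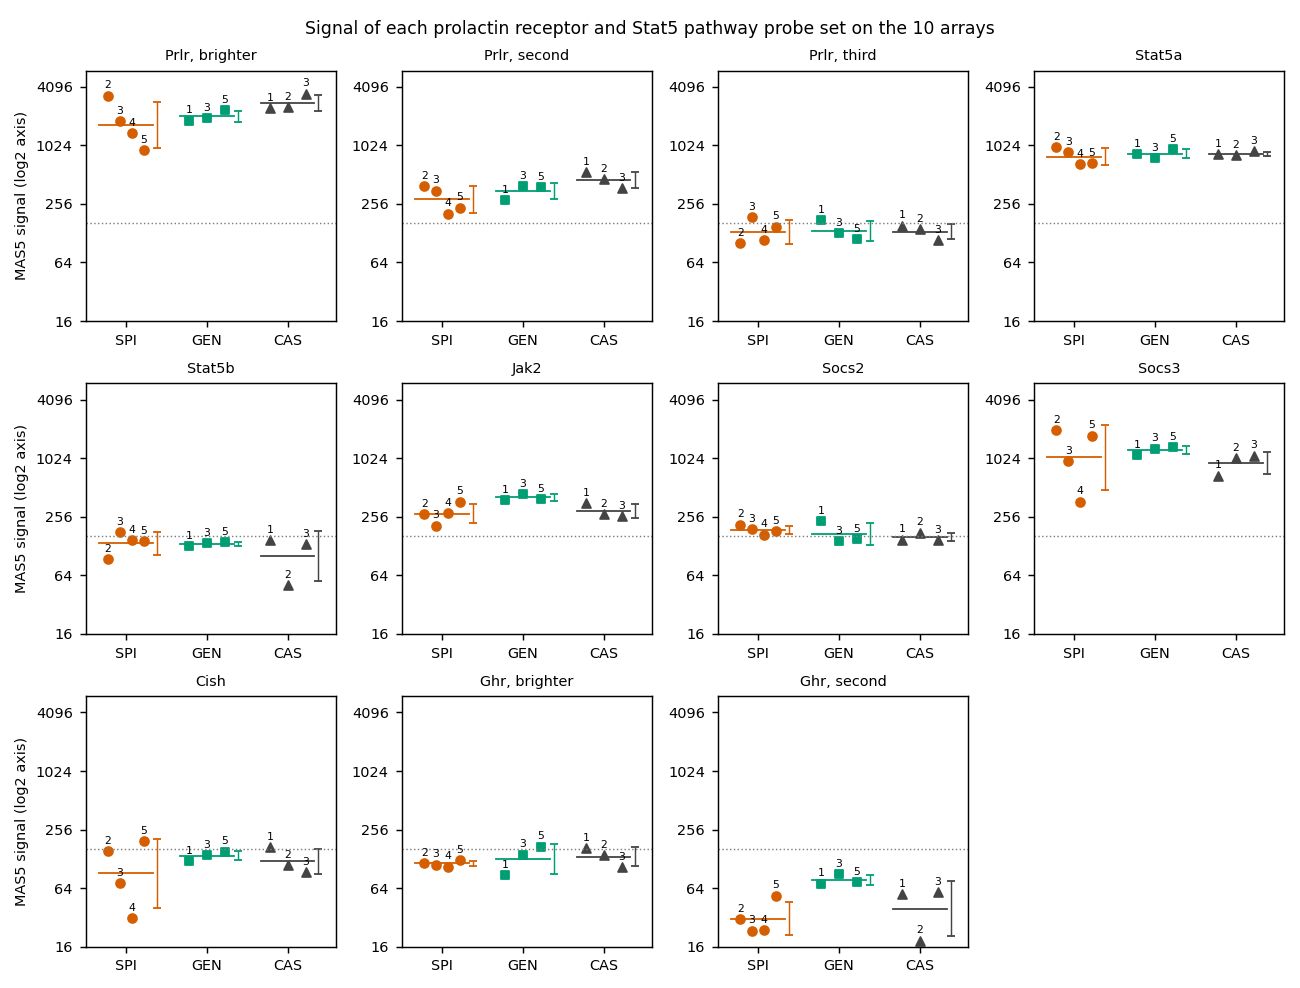
MAS5 signal (log2 axis) of the 11 probe sets on each array, by diet; digits are replicate numbers, horizontal lines are geometric means, bars beside them are 1 SD on the log2 scale (n = 4 SPI, 3 GEN and 3 CAS) and the dotted line is the testing limit of 162. The brighter Prlr probe set ran from 921.1 to 3325 on SPI, from 1834.9 to 2358.8 on GEN and from 2460.9 to 3475.3 on CAS.

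The 2 brighter probe sets of the receptor gene Prlr both had lower means on SPI than on CAS, without passing the test over all probe sets. The brighter one had signals of 3325, 1832.5, 1356.8 and 921.1 on SPI 2, 3, 4 and 5. On GEN 1, 3 and 5 it had 1834.9, 1960.3 and 2358.8, and on CAS 1, 2 and 3 it had 2460.9, 2512.3 and 3475.3. On SPI, 3 of 4 arrays lay below every CAS array, while SPI 2 lay inside the CAS range, and all 3 GEN arrays lay below all 3 CAS arrays. The log2 difference of SPI against CAS was -0.74 ± 0.32 (SE), with a 95% interval of -1.44 to -0.04 (limma, adjusted p = 0.987). For GEN against CAS it was -0.45 ± 0.35, with an interval of -1.19 to 0.30 (limma, adjusted p = 0.849). For SPI against GEN it was -0.30 ± 0.32, with an interval of -0.99 to 0.40 (limma, adjusted p = 0.820). The fit shares 1 estimate of the spread over the diets, whose log2 SDs were 0.78 on SPI, 0.19 on GEN and 0.28 on CAS. With only the GEN and CAS arrays fitted, the GEN against CAS difference of -0.45 had an unadjusted p under 0.05 (limma, adjusted p = 0.831). With only the SPI and CAS arrays fitted, the unadjusted p of SPI against CAS was above 0.05 (limma, adjusted p = 0.991). It was also above 0.05 in the plain linear model, and with the replicate number as a block, where the difference was -0.56.

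The second Prlr probe set had signals of 391.4, 350.7, 203.8 and 234.1 on SPI 2, 3, 4 and 5, and 278.7, 391.5 and 383.2 on GEN 1, 3 and 5. On CAS 1, 2 and 3 it had 538.6, 464.2 and 372.8. Again 3 of 4 SPI arrays lay below every CAS array, with SPI 2 inside the CAS range, and 1 of 3 GEN arrays lay below every CAS array. The log2 difference of SPI against CAS was -0.67 ± 0.24 (SE), with an interval of -1.19 to -0.15 (limma, adjusted p = 0.969). For GEN against CAS it was -0.39 ± 0.26 (interval -0.94 to 0.17, limma adjusted p = 0.846), and in SPI against GEN it was -0.29 ± 0.24 (interval -0.81 to 0.23, limma adjusted p = 0.759).

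The mean signal of both probe sets was lowest on SPI, then GEN, then CAS. Neighbours in that order overlapped, except GEN and CAS for the brighter probe set, and none of these differences passed the adjusted threshold. The third Prlr probe set lay below the testing limit, with signals from 101.3 to 186.2 on SPI, 111.7 to 175.4 on GEN and 109.1 to 153.0 on CAS. These ranges overlapped throughout, so this probe set did not carry the order seen in the other two. A dim probe set may measure little beyond background.

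**Figure D2:**
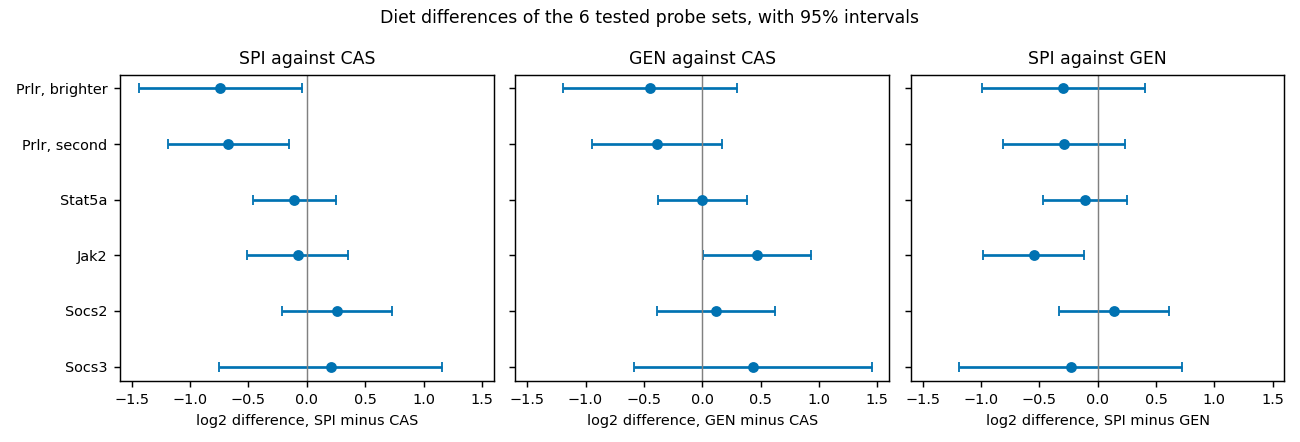
Log2 difference (x axis) of the 6 tested probe sets in the 3 comparisons, first diet minus second; points are limma estimates over all 10 arrays and bars are 95% intervals. Both Prlr intervals for SPI against CAS (-1.44 to -0.04 and -1.19 to -0.15) and the Jak2 interval for SPI against GEN (-0.98 to -0.12) lie below 0, and no difference passed the adjusted threshold.

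How far the Prlr difference leaned on single arrays was read from fits without each array. Without SPI 2, the SPI against CAS difference of the brighter probe set was -1.08 (limma, adjusted p = 0.475). Without SPI 5 it was -0.46. The unadjusted p was above 0.05 when SPI 4, SPI 5, CAS 2 or CAS 3 was left out. For the second probe set the difference ran from -0.83 without SPI 2 to -0.51 without SPI 4, and the unadjusted p was above 0.05 when CAS 1 was left out. With the replicate number as a block, the second probe set stood at -0.47, with an unadjusted p above 0.05. The sign of both was negative in each of the 10 fits with 1 array left out, and no fit brought an adjusted p under 0.05. For SPI against GEN, the brighter probe set stood at -0.63 without SPI 2 and at -0.01 without SPI 5, and the second at -0.13 without SPI 4. For GEN against CAS, the brighter probe set stood at -0.29 without CAS 3 and at -0.15 with the replicate number as a block. The second stood at -0.23 without GEN 1.

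**Figure D3:**
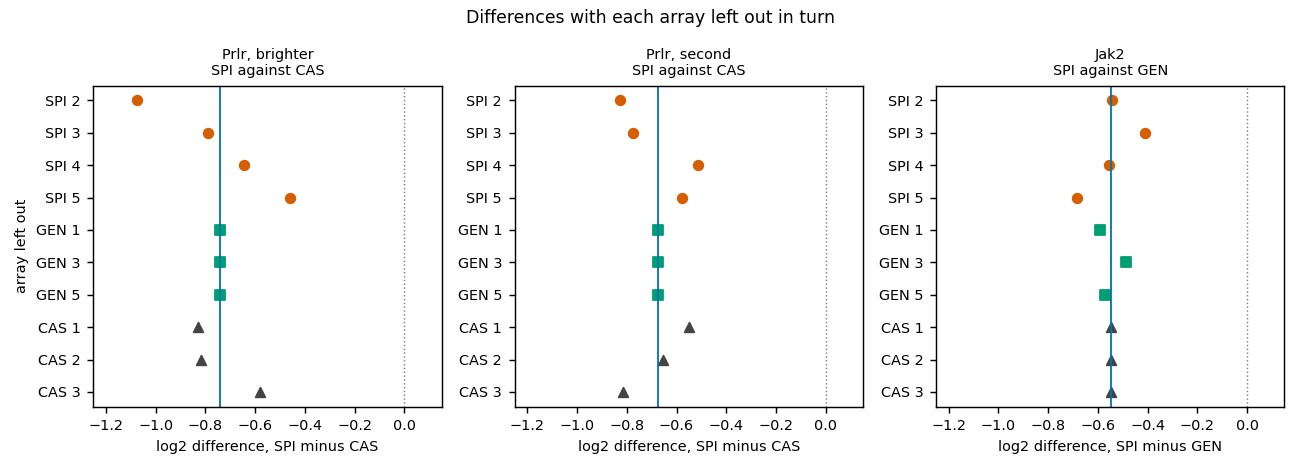
Log2 difference (x axis) with each array left out in turn (y axis); the solid line is the value with all arrays and the dotted line is 0. The value of the brighter Prlr probe set in SPI against CAS moved between -1.08 without SPI 2 and -0.46 without SPI 5, that of the second Prlr probe set between -0.83 and -0.51, and that of Jak2 for SPI against GEN between -0.69 and -0.41.

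Prlr is expressed in the luminal epithelium, whose share of the gland can differ between pools. In bulk tissue, fewer cells of a type and less RNA per cell cannot be told apart. The 15 luminal markers (keratins, claudins, Epcam and others) had a mean log2 signal of 10.12, 9.80, 9.02 and 9.79 on SPI 2, 3, 4 and 5. It was 10.21, 10.21 and 10.61 on GEN 1, 3 and 5, and 10.30, 9.65 and 9.93 on CAS 1, 2 and 3. Their summed signal ran from 10822 to 21329 on SPI, from 24251 to 33107 on GEN and from 15820 to 26912 on CAS. Of the 14 luminal markers tested, 12 had negative differences for SPI against CAS and 13 had positive differences for GEN against CAS. SPI 4, lowest in luminal signal, also stood highest in the ratio of the 3' to the 5' control probe sets for beta-actin, which rises as RNA degrades, at 7.77 against 2.83 to 5.22 on the other arrays. The part of luminal content and RNA integrity in the Prlr values was not tested beyond a fit with the actin ratio as a covariate, in which both Prlr differences stayed below 0.

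The kinase gene Jak2 showed the pattern in which GEN stood apart. Its signals were 381.8, 440.7 and 392.1 on GEN 1, 3 and 5, against 352.9, 272.6 and 258.3 on CAS 1, 2 and 3. On SPI 2, 3, 4 and 5 they were 272.3, 207.5, 280.6 and 367.3. Every GEN array lay above every CAS array and above every SPI array, and the SPI and CAS arrays overlapped. The log2 difference was 0.47 ± 0.21 (SE) for GEN against CAS, with an interval of 0.01 to 0.93 (limma, adjusted p = 0.825). For SPI against GEN it was -0.55 ± 0.20, with an interval of -0.98 to -0.12 (limma, adjusted p = 0.563). For SPI against CAS it was -0.08 ± 0.20 (interval -0.51 to 0.35, limma adjusted p = 0.987). The unadjusted p of GEN against CAS was above 0.05 in several alternatives, among them the fit without any 1 of the 3 GEN arrays. That of SPI against GEN was above 0.05 without SPI 3, without GEN 3 and with the replicate number as a block.

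Among the members, groups did not overlap for 3 of 6 probe sets in GEN against CAS, those of Jak2, Socs3 and the brighter Prlr probe set. Over all probe sets, 11.1% had no overlap in that comparison. For SPI against GEN it was 1 of 6, Jak2, with a background of 8.5%, and for SPI against CAS it was 0 of 6, with a background of 4.6%.

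Stat5a, the transcription factor that carries the prolactin signal to milk genes, had differences near 0 in all 3 comparisons. It had signals of 976.6, 877.6, 651.6 and 668.9 on SPI 2, 3, 4 and 5, and 839.3, 758.3 and 940.7 on GEN 1, 3 and 5. On CAS 1, 2 and 3 it had 829.7, 809.3 and 889.8. The lowest and the highest value of all 10 arrays were both on SPI, and the ranges of the diets overlapped. The log2 differences were -0.11 ± 0.17 (SE) in SPI against CAS, 0.00098 ± 0.18 in GEN against CAS and -0.11 ± 0.17 in SPI against GEN. Their 95% intervals, -0.46 to 0.25, -0.38 to 0.38 and -0.47 to 0.25 log2 units, are the narrowest among the tested members in each comparison. Stat5b, which lies next to Stat5a on chromosome 10 with 0 annotated genes between them, was below the testing limit. Its signals ran from 93.3 to 179.4 on SPI, from 128.5 to 140.1 on GEN and from 50.6 to 147.5 on CAS, with overlap between all diets.

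Stat5a and the brighter Prlr probe set were correlated over the arrays by Pearson r and not, after adjustment, by ranks. For their log2 signals Pearson r was 0.823 (n = 10, two-sided permutation p = 0.00340, and 0.0374 after adjustment over 11 pairs). By ranks, Spearman rho was 0.636 (n = 10, permutation p = 0.0549, and 0.302 after adjustment) and did not pass. On deviations from the diet means r was 0.870 (n = 10, permutation p = 0.000790, and 0.00869 after adjustment). The permutation of such deviations treated all 10 as exchangeable, although 3 diet means had been removed and the spread differed between diets. Permutation p-values within diets may therefore be too small. Without SPI 5 and CAS 3, the arrays farthest from the Prlr median, r was 0.781. Both genes were low on SPI 4 and SPI 5 and high on SPI 2. The 2 brighter Prlr probe sets had an r of 0.742 (permutation p = 0.0141, adjusted 0.0778, n = 10), a Spearman correlation of 0.685 (permutation p = 0.0346, adjusted 0.302) and an r of 0.764 without the same arrays. Within diets their r was 0.594 (permutation p = 0.0619, adjusted 0.288, n = 10). None of the other 9 pairs of members passed, with Pearson correlations from -0.26 to 0.45 and a smallest unadjusted permutation p of 0.197.

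**Figure D4:**
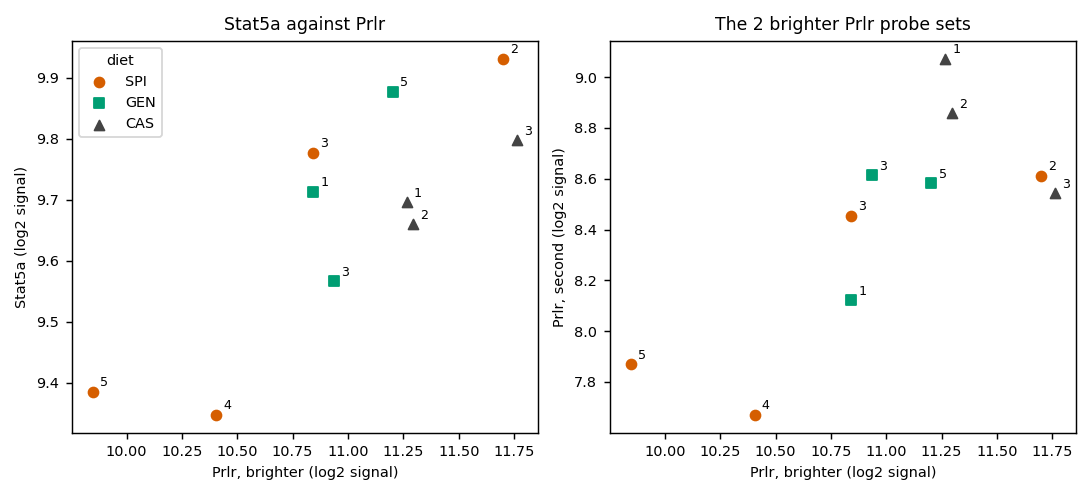
Log2 signal of Stat5a (left, y axis) and of the second Prlr probe set (right, y axis) against that of the brighter Prlr probe set (x axes) on the 10 arrays; colours and shapes are diets and digits are replicate numbers. SPI 4 and SPI 5 lie lowest on both axes of both panels, and Pearson r over the arrays was 0.823 on the left and 0.742 on the right.

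None of the inhibitor genes passed the test. Socs3, whose product binds cytokine receptors and blocks Jak kinases, had signals of 1986.2, 957.1, 367.2 and 1744.5 on SPI 2, 3, 4 and 5. It had 1102.9, 1284.1 and 1320.4 on GEN 1, 3 and 5, and 677.5, 1027.0 and 1089.9 on CAS 1, 2 and 3. The SPI arrays held both the lowest and the highest value of the series, a 5.41-fold range, and all GEN arrays lay above all CAS arrays. The SD on the log2 scale was 1.11 on SPI (n = 4), 0.14 on GEN (n = 3) and 0.37 on CAS (n = 3), and no test of these spreads was made. The log2 difference was 0.20 ± 0.44 (SE) in SPI against CAS, 0.43 ± 0.47 in GEN against CAS and -0.23 ± 0.44 in SPI against GEN (limma, adjusted p = 0.987, 0.884 and 0.903). The shared estimate of the spread took in the wide SPI values, and the intervals of Socs3 reached 0.95 to 1.02 log2 units to either side. With the actin ratio as a covariate the GEN against CAS difference was 0.086, and without CAS 1 it was 0.22. Without SPI 4, the array with the highest actin ratio, the differences were 0.71 for SPI against CAS and 0.28 for SPI against GEN.

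Cish, the inhibitor whose promoter window is shown above, was below the testing limit. It had signals of 153.0, 72.8, 31.7 and 196.0 on SPI 2, 3, 4 and 5, and 122.5, 140.6 and 152.3 on GEN 1, 3 and 5. On CAS 1, 2 and 3 it had 167.8, 111.1 and 94.3. As with Socs3, the SPI arrays spanned the whole range, with SPI 4 lowest, and the diets overlapped. Socs2, which restrains growth hormone signalling in mice, had 213.0, 191.8, 167.8 and 181.6 on SPI 2, 3, 4 and 5, and 229.2, 144.3 and 149.8 on GEN 1, 3 and 5. On CAS 1, 2 and 3 it had 149.1, 175.9 and 148.1, and 3 of 4 SPI arrays lay above every CAS array. The log2 differences were 0.26 ± 0.22 (SE) in SPI against CAS, 0.12 ± 0.23 in GEN against CAS and 0.14 ± 0.22 in SPI against GEN (limma, adjusted p = 0.987, 0.942 and 0.879). Its geometric mean signal of 173 was only just above the limit of 162, whereas the third Prlr probe set at 133 was the nearest member below it.

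The growth hormone receptor gene Ghr was dim on both of its probe sets. The brighter of them ran from 106.8 to 124.9 on SPI, from 87.2 to 171.5 on GEN and from 105.6 to 164.0 on CAS, with overlap between all diets. The dimmer one had 30.7, 23.4, 23.6 and 53.8 on SPI 2, 3, 4 and 5, and 71.5, 88.9 and 73.8 on GEN 1, 3 and 5. On CAS 1, 2 and 3 it had 55.7, 18.5 and 58.6, so every GEN array lay above every other array, at signals far below the testing limit. In a fit with no filter its difference was -1.33 ± 0.48 (SE) for SPI against GEN (limma, adjusted p = 0.609) and 0.99 ± 0.52 for GEN against CAS (limma, adjusted p = 0.878). The other probe set stood at -0.16 and -0.07 in the same comparisons. Over the 11 probe sets, limma called 0 in any comparison of that fit, in which the background was 0% of 15866. At an unadjusted p under 0.05 there were 2 in SPI against CAS (background 4.89%), 0 in GEN against CAS (background 5.57%) and 2 in SPI against GEN (background 7.65%), and this dim Ghr probe set was 1 of the last 2.

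The genes whose log2 signal followed a member most closely were ranked by Pearson r over the 10 arrays, among 8064 tested probe sets of 7119 genes with 1 symbol. They are given as a description, since the top of such a ranking is high by selection. For Prlr they were Sirt5 (0.949), Tmem129 (0.948), Lamtor3 (0.935), Coq9 (0.908) and Lig3 (0.898). For Stat5a they were Cdk8 (0.962), Golgb1 (0.938), Ldb1 (0.924), Sorl1 (0.915) and again Sirt5 (0.906). For Jak2, Rplp0 (0.936) and Stmp1 (0.928) came first, for Socs2 Slc8a1 (0.936) and Srebf2 (0.910), and for Socs3 Esyt1 (0.946) and Suclg2 (0.943).

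The rest of the pathway was described with 8 lists of 97 genes, of which 59 were tested by their brightest probe set. At an adjusted p under 0.05, limma called 0 of the 59 in each comparison. At an unadjusted p under 0.05, 1 was higher and 3 were lower for SPI against CAS, where the background was 1.53% higher and 3.29% lower. For GEN against CAS 6 were higher and 2 lower (background 2.7% and 3.19%), and in SPI against GEN 5 were higher and 7 lower (background 3.7% and 4.25%). Over all tested probe sets the median difference was -0.012, -0.013 and -0.0043 in the same order of comparisons.

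Milk genes induced by prolactin were the list farthest from those medians, with a median of 0.83 in GEN against CAS and -1.07 in SPI against GEN over 8 tested genes. At an unadjusted p under 0.05, 5 of 8 were higher for GEN against CAS (background 2.7%), with 0 called after adjustment. For SPI against GEN, 7 of 8 were lower (background 4.25%), again with 0 called after adjustment. The lists were chosen with earlier results of these data known, so these counts are a description. The casein gene Csn2 had mean signals of 6747 ± 3247 (SD, n = 4) on SPI, 15249 ± 3246 (SD, n = 3) on GEN and 7739 ± 6417 (SD, n = 3) on CAS. Its log2 difference was 1.34 ± 0.59 (SE) in GEN against CAS and -1.35 ± 0.55 in SPI against GEN. The milk gene Wap had the smallest p of the list in both of these comparisons. Its difference was 1.44 ± 0.35 (SE) in GEN against CAS (limma, adjusted p = 0.766). In SPI against GEN the Wap difference was -2.06 ± 0.33 (limma, adjusted p = 0.132). For SPI against CAS the list median was -0.04, with 2 of 8 lower at an unadjusted p under 0.05 (background 3.29%). They were Lalba of lactose synthesis (-0.76) and Xdh of milk fat secretion (-0.60). Beside these values, the brighter Prlr probe set had a difference of -0.45 in GEN against CAS and -0.30 in SPI against GEN. The luminal marker list had medians of 0.40 in GEN against CAS and -0.69 in SPI against GEN, and the part of epithelial content in the milk gene values was not tested.

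**Figure D5:**
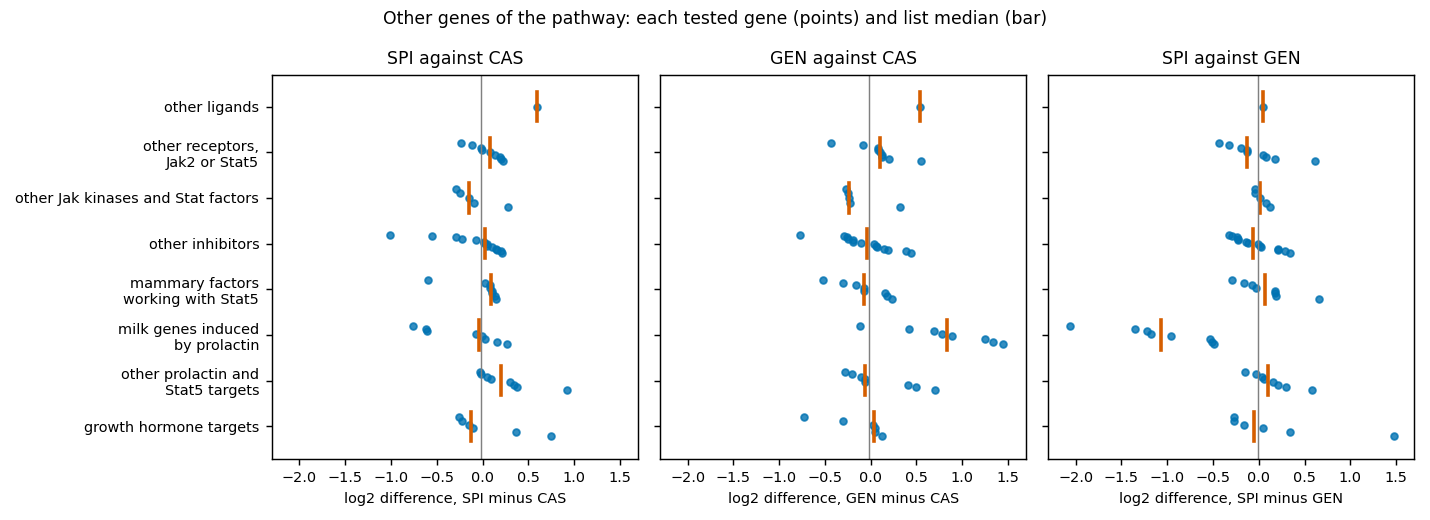
Log2 difference (x axis) of each tested gene of the 8 pathway lists (points) in the 3 comparisons, with the list median (coloured bar) and the median of all tested probe sets (grey line). Milk genes lie to the right for GEN against CAS (median 0.83) and to the left for SPI against GEN (median -1.07), and the medians of the other lists with more than 1 tested gene lie between -0.23 and 0.20.

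Other targets of prolactin and Stat5 did not lie with the milk genes. Their medians over 8 genes were 0.20, -0.06 and 0.10 in the same order of comparisons. At an unadjusted p under 0.05, the cell cycle inhibitor Cdkn1a was higher for SPI against CAS (0.92 ± 0.38). The growth factor Areg (0.58 ± 0.21) and the cyclin Ccnd1 (0.30 ± 0.14) were higher for SPI against GEN. Areg is also an estrogen target in the mammary gland. Among 6 growth hormone targets the medians were -0.13, 0.04 and -0.06 in the same order of comparisons. Igf1, the growth factor that growth hormone induces, stood at -0.26 ± 0.20 for SPI against CAS and -0.30 ± 0.21 for GEN against CAS, and Serpina3n, also an acute phase gene, at 1.47 ± 0.56 for SPI against GEN.

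Other receptors that signal through Jak2 or Stat5 had 9 tested genes and medians of 0.09, 0.11 and -0.13. Il6st, the signalling subunit shared by receptors of the interleukin 6 family, had mean signals of 11606 ± 1940 (SD, n = 4) on SPI, 7604 ± 1736 (SD, n = 3) on GEN and 10150 ± 1444 (SD, n = 3) on CAS. Its difference was 0.62 ± 0.17 (SE) for SPI against GEN (limma, adjusted p = 0.461) and -0.43 ± 0.18 for GEN against CAS. The 5 other Jak kinases and Stat factors had medians of -0.15, -0.23 and 0.02 and 0 genes at an unadjusted p under 0.05, with Tyk2 at -0.29, -0.25 and -0.04 and Stat3 between -0.22 and 0.12. A list labelled other inhibitors also held genes that can promote such signalling, among them Sh2b1 and Ptpn11. Over its 14 tested genes the medians were 0.03, -0.04 and -0.06. The leukocyte phosphatase Ptprc, also a lymphocyte marker, stood at -1.01 ± 0.30 for SPI against CAS, and Socs5 at 0.44 ± 0.18 for GEN against CAS. The 8 mammary factors that work with Stat5 had medians of 0.09, -0.07 and 0.07. In that list the luminal regulator Gata3 stood at -0.59 ± 0.29 for SPI against CAS and Nfia at 0.66 ± 0.29 for SPI against GEN. Among ligands only Csf2 was tested, at 0.59 ± 0.84, 0.54 ± 0.90 and 0.05 ± 0.84, and Prl and Gh1 lay below the limit.

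Markers of the other cell types of the gland are given beside these values. Fibroblast markers had negative differences in 9 of 9 tested genes in SPI against CAS (median -0.51), 9 of 9 in GEN against CAS (median -0.30) and 8 of 9 in SPI against GEN (median -0.35). Macrophage markers had them in 8 of 8 (median -0.65), 6 of 8 (median -0.29) and 7 of 8 (median -0.29) in the same order. Basal markers had medians of 0.19, 0.14 and -0.14 in the same order of comparisons, adipocyte markers 0.16, 0.20 and 0.01, and endothelial markers 0.25, 0.03 and 0.23. Of the lymphocyte markers only 2 were tested (medians -0.44, -0.34 and -0.09), and they lay on opposite sides of 0 in each comparison. In SPI against CAS, Ptprc stood at -1.01 and the other at 0.14. Of the skeletal muscle markers 4 were tested (medians -0.85, -0.63 and -0.43). The summed signal of the 9 skeletal muscle markers with a probe set, tested or not, was 6801 on CAS 1 and at most 1442 on any other array. No marker of any list was called after adjustment, and the part of these cell types in the member values was not tested.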

How the data were processed

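Gene expression was measured on 10 Affymetrix RAE230 arrays. The authors deposited MAS5 signal intensity values, 1 column per array, and the submitters' processing notes name MAS5, with its version not given in the sources used here. Each array, trimmed of 2% of values at both ends, had a mean of 500.1. The 57 control probe sets were dropped, signals under 1 were raised to 1 and put on the log2 scale. A filter dropped the 40% of probe sets with the lowest mean, and 9520 remained. Symbols came from the platform annotation through Entrez identifiers (0 changed).

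Differences were tested with limma 3.58.1 in R 4.3.3 (lmFit, eBayes with intensity trend) on all 10 arrays, Benjamini-Hochberg adjusted over 9520 probe sets per comparison, at a threshold of 0.05. The procedure was tested on simulated data. Correlations used 100000 permutations. Members, lists and naming rule were chosen with earlier results of these data known. The rule names all member probe sets, up to 4 genes of smallest p per list and comparison by the brightest tested probe set, and up to 5 genes most like each tested member. With so few arrays precision is limited: 95% intervals reached a median of 0.41 log2 units to each side in SPI against CAS. The alternatives covered filter, offset, scaling, variance model, arrays fitted, replicate block, actin ratio and single arrays left out. Correlation of the 2 brighter Prlr probe sets was added after seeing the data.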

Additional observations from a re-analysis of the deposited data

How the results depend on the processing

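Over 20 alternative settings, the 18 differences of the 6 tested probe sets gave 354 values, none past an adjusted p of 0.05, and 340 kept their sign. The 14 that did not came from 6 of the differences. With 1 array left out, Jak2 ran from -0.22 to 0.059 and Socs3 from -0.10 to 0.71 for SPI against CAS. Stat5a ran from -0.078 to 0.077 and Socs2 from -0.10 to 0.24 for GEN against CAS, and Socs3 from -0.54 to 0.28 for SPI against GEN. With the actin ratio as a covariate, Stat5a stood at -0.013 for GEN against CAS and Socs3 at 0.23 for SPI against GEN, and Socs3 in GEN against CAS stood at 0.086, against 0.43 without the covariate. The correlation of Prlr and Socs2 was -0.15 over the arrays and 0.17 on deviations from the diet means. The cause of these changes was not tested.

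Over all probe sets, the number called ran from 0 to 2 for SPI against CAS, from 0 to 1 for GEN against CAS and from 0 to 1 for SPI against GEN with 1 array left out. It was 2 for GEN against CAS with the stricter filter, where fewer probe sets were tested, and 2 for SPI against GEN with only the arrays of those diets. None of these was a member. They were RT1-CE16, RT1-Bb, Apod, Il17b, Rpl37a and 2 probe sets without a symbol, all named after their values were seen.

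Arrays with the same replicate number did not deviate together (r from -0.18 to 0.16), so the numbers are not taken as pairs. With the replicate block, limma called 0 probe sets in each comparison, Stat5a stood at 0.0054 for SPI against CAS and Socs3 at 0.041 for SPI against GEN. Differences in signals below about 162 are uncertain, which covers 5 of the 11 probe sets. In fits with no filter that left out 1 array at a time, added after seeing the data, 0 of those 5 were called by limma.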
